A study of Rattus norvegicus with 20 samples.

Results

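The genes described here were chosen by their own messenger RNA signals in the livers of 20 rats. A wide gap parted these signals into an upper and a lower level, which were not tight for every gene. The levels did not follow a single diet. A probe set is a group of short probes that gives 1 signal on the array, and some are listed with several gene symbols. It was taken as a member when its mean over the 20 arrays was at least 2.06 on the log2 scale. Its 20 sorted signals also had to have a largest gap between neighbours of at least 0.83 (1.78-fold). At least 4 arrays and rats of at least 3 diets had to lie on each side of the gap, and 2 genes, Ephx2 and Abca1, were left out by name. Of the 27702 probe sets with values, 18461 reached the mean, 180 of these also had the gap, 17 of these had 4 arrays on each side, 12 also had the diets, and 11 were left without Abca1. A platform symbol was listed for 6 of the 11: Marveld1, Gadd45g, Pnpla3, Pilra, Onecut1 and Mlc1. The other 5 have no symbol listed and are called by their probe set number.

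The livers came from male Sprague-Dawley rats, an outbred stock, bought at 4 weeks, kept for 5 days on a commercial feed and then for 21 days on 1 of 4 diets. Of 7 or 8 rats per diet, 5 with a typical food intake went onto arrays, 1 array per rat. The control diet held casein, the main milk protein, at 200 g/kg. A conventional cultivar supplied protein in equal parts with casein in the conventional soybean diet, as did an isoflavone-rich cultivar in the 1:1 high-isoflavone diet. The 3:1 high-isoflavone diet took 3 parts from casein and 1 part from the high-isoflavone cultivar. The series asks what soybeans and their isoflavones, plant compounds that bind estrogen receptors, do to liver messenger RNA. A rat is named here by its diet and the replicate number of its title, all values are log2 signals, and the genotype of the rats was not measured.

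Several of the named members belong to liver programmes that are known to switch within hours. Growth hormone, released in pulses in male rats, acts through the receptor-bound kinase JAK2 and the transcription factor STAT5, which induces its own brakes, among them Cish and Socs2, and the liver transcription factor Onecut1 (HNF6) is also known to respond to it. Gadd45g is a stress and growth-arrest gene that is induced and lost again quickly, like the immediate early genes. Pnpla3 encodes a lipid droplet enzyme that is switched on with the genes of fatty acid synthesis after a carbohydrate meal and falls in fasting.

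The 20 arrays had medians of 2.43 to 2.57; precision is limited by their number. On 2 arrays, rat 5 on casein and rat 1 on 3:1 high-isoflavone, the lowest signal was 0.45 and 0.47, against -1.55 to -0.88 on the other 18. All 11 members still met the rule without these 2 arrays, and 4 others then did too. The defining hepatocyte gene Alb lay between 9.91 and 10.51 in all 20 livers. Of 121 pairings of a member with the summed level of 1 of 11 marker lists for cell types, none ordered the rats as the member did, and 2 did so but for 1 rat on each side. In whole liver, fewer cells of a type and less RNA per cell cannot be told apart.

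The gaps of the 11 members ran from 0.86 to 2.61, which is 1.82-fold to 6.12-fold, with a median of 1.09. The lower level of some members, such as Pilra, lay below the array medians of 2.43 to 2.57, and that of others, such as 1372727_at, above. The folds are thus ratios of signals only. The median largest gap over all probe sets at or above the mean was 0.18 and the 99th percentile was 0.81. These values chose the members and are given as a description. Just inside the threshold lay Mlc1 at 0.93, 1388071_x_at at 0.89 and 1395327_at at 0.86. Just outside lay Slc6a6 at 0.76, Sephs2 at 0.75 and Apc at 0.73. By symbol, 0 of the 592 probe sets of 17 gene families at or above the mean were members, beside 11 of all 18461. Abca1, of 1 of these families, was left out only by name, so nothing is read from the 0. The 5 members without a symbol could be placed in no family.

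**Figure D1:**
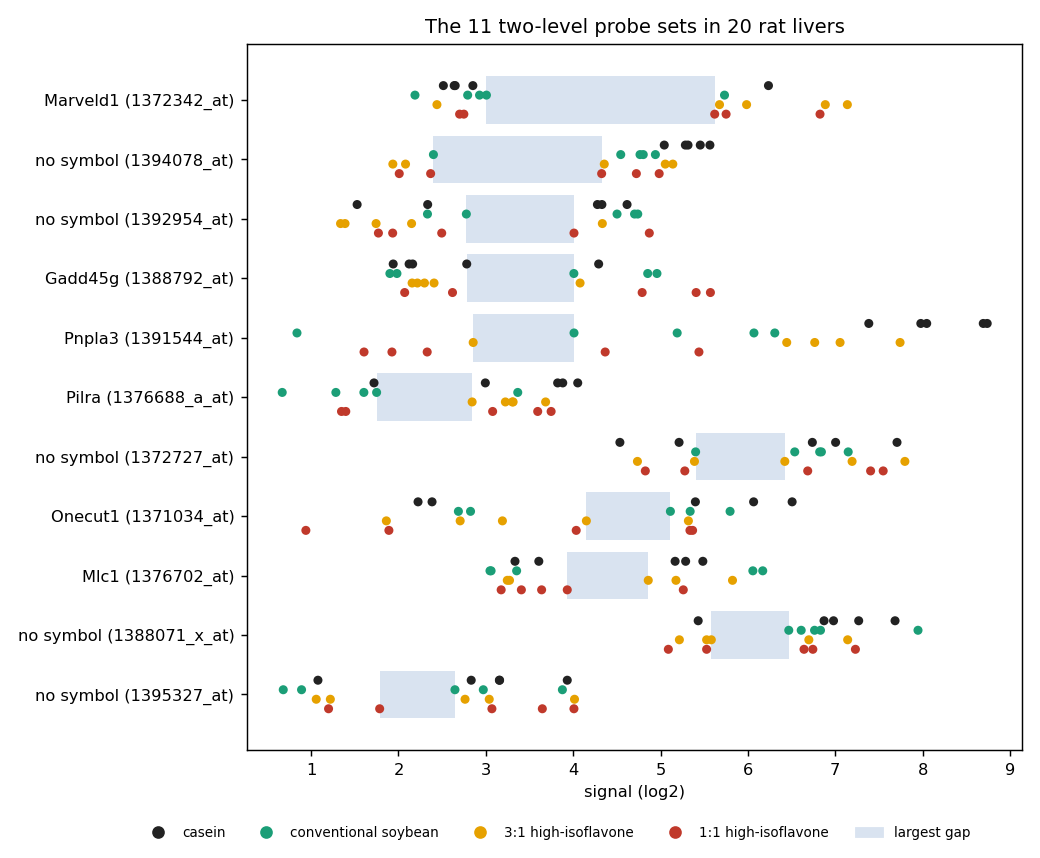
Log2 signal (horizontal axis) of the 11 two-level probe sets, 1 point per rat, coloured by diet, with the largest gap shaded. Marveld1 has the widest gap, 2.61, with the lower rats between 2.19 and 3.01, while the points of Pnpla3 spread from 0.84 to 8.74.

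Marveld1, a membrane protein with a MARVEL domain, had the widest gap of the members. Its probe set 1372342_at read 2.51, 2.65, 6.24, 2.64 and 2.85 in casein rats 1 to 5, and 2.79, 2.93, 5.73, 2.19 and 3.01 on conventional soybean. It read 2.44, 5.68, 6.89, 7.14 and 5.99 on the 3:1 diet and 2.70, 5.75, 6.83, 5.62 and 2.75 on the 1:1 diet. So 9 rats lay at 5.62 or above and 11 at 3.01 or below, and the upper level held 1, 1, 4 and 3 rats of the 4 diets in this order. A second probe set of the gene, 1375180_at, did not part the rats this way: it ran from 2.52 to 3.35 over all 20 rats, and 5 of the 9 upper rats were among its 9 highest. No probe set of another gene parted the rats exactly as 1372342_at did. In the RefSeq gene order, the gene Avpi1 lies on the same chromosome with 1 gene between, and its probe set 1370252_at had 8 of the 9 upper rats among its 9 highest, as had or mirrored 0.249% of the 27701 other probe sets. That probe set reached 4.58, 4.17 and 4.03 in the rats with the highest Marveld1 values, rat 4 and rat 3 on the 3:1 diet and rat 3 on the 1:1 diet, and lay between 3.31 and 3.88 in the others. The other Avpi1 probe set, 1370251_at, had 5 of the 9, and the other genes measured within 3 places, Pi4k2a and Zfyve27, had 3 to 5. So 1 of the 5 neighbouring probe sets followed, and it was also the only 1 of 41 within 25 places.

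The unnamed 1394078_at came next with a gap of 1.93. On casein all 5 rats were at the upper level, with 5.31, 5.57, 5.04, 5.28 and 5.46. On each soybean diet some rats lay at the lower level: rat 4 on conventional soybean at 2.40, rats 2 and 5 on the 3:1 diet at 2.08 and 1.94, and rats 2 and 5 on the 1:1 diet at 2.37 and 2.01. The remaining soybean-fed rats lay between 4.33 and 5.14, and no rat lay between 2.40 and 4.33. The lower level spanned 0.46 and the upper level, with the casein rats, 1.24. No other probe set parted the rats in this way.

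Gadd45g, read by 1388792_at, was at the upper level in 8 rats and at the lower in 12. Casein rats 1 to 5 read 2.12, 4.29, 1.94, 2.16 and 2.78, and those on conventional soybean 4.01, 4.96, 4.85, 1.90 and 1.98. The 3:1 rats read 2.41, 2.16, 4.08, 2.30 and 2.22 and the 1:1 rats 4.79, 5.41, 2.07, 5.57 and 2.62. The upper level thus held 1 rat on casein, 3 on conventional soybean, 1 on the 3:1 diet and 3 on the 1:1 diet, with nothing between 2.78 and 4.01.

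Of the 27701 other probe sets, 12 (0.0433%) parted the rats exactly as Gadd45g did, 7 in the same direction and 5 in the opposite one, and they stood for 8 named genes. Cish, the inducible inhibitor of STAT5 signalling, did so with both of its probe sets. Its 1378586_at lay between 3.83 and 4.72 in the 8 rats with high Gadd45g and between 2.70 and 3.17 in the other 12. Its dimmer 1388233_at lay between 1.88 and 2.65 against 1.13 to 1.73. Foxa2, a transcription factor that opens liver chromatin, read 4.75 to 5.76 against 3.79 to 4.63. Dusp6, a phosphatase that switches off the kinase ERK, read 4.76 to 5.36 against 3.26 to 4.54 by 1377064_at, and its 1387024_at also parted the rats. The remaining Dusp6 probe set, 1382778_at, did not, with 2.90 in rat 4 on the 1:1 diet, a rat high in Gadd45g. Ier2, an immediate early gene, read 4.43 to 4.84 against 3.31 to 4.21, and Irf2bpl 4.09 to 4.86 against 3.61 to 4.01. In the opposite direction, the growth factor receptor Egfr read 5.04 to 5.98 in the rats with high Gadd45g and 6.21 to 6.83 in the others by 1381145_at. Its 1370830_at read 4.07 to 5.66 against 5.33 to 6.08, overlapping at rat 2 on casein, and its dim 1385413_at, 2.80 to 3.24, did not follow. Depp1, a gene induced in fasting, likewise read 3.82 to 4.76 against 4.87 to 6.08, and Cdc42ep4 3.17 to 3.67 against 3.72 to 4.18. The distances between the nearest rats of both sides were 0.66 for Cish by 1378586_at, 0.15 by its 1388233_at and at most 0.22 for the other genes. These genes were picked because they order the rats as Gadd45g does, so the ranges are a description with no test.

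**Figure D2:**
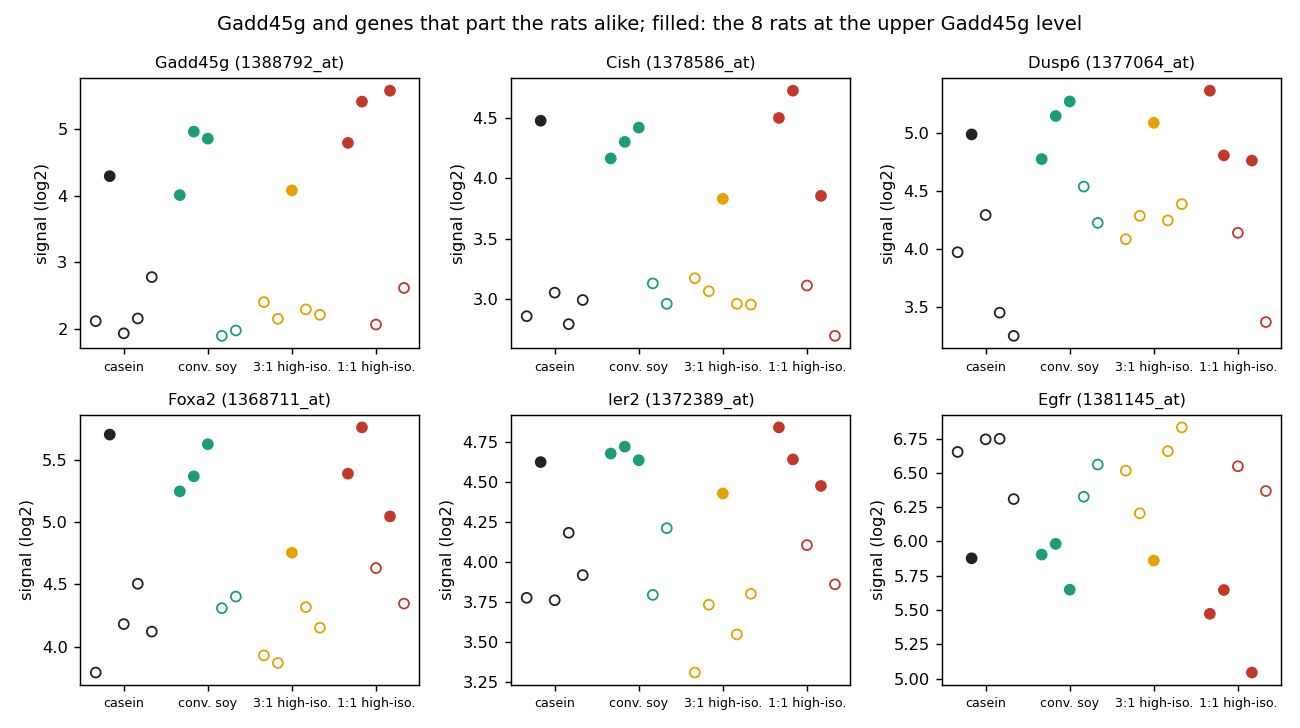
Log2 signal (vertical axis) of Gadd45g and 5 genes that part the 20 rats exactly as it does, by diet, 1 point per rat. Filled points are the 8 rats at the upper Gadd45g level: they are the 8 highest for Cish, Dusp6, Foxa2 and Ier2 and the 8 lowest for Egfr.

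The sequences before the starts of Gadd45g and Cish are shown because these genes parted the 20 rats identically and Cish is a textbook target of STAT5. They are the 250 bases upstream of each start from RefSeq, build GRCr8, for Gadd45g at chr17:13530352-13530601 on the minus strand and for Cish at chr8:116850719-116850968 on the plus strand, written 5′ to 3′. Capitals mark TTCNNNGAA, the motif that STAT5 is known to bind, which reads the same pattern on both strands.
Cish: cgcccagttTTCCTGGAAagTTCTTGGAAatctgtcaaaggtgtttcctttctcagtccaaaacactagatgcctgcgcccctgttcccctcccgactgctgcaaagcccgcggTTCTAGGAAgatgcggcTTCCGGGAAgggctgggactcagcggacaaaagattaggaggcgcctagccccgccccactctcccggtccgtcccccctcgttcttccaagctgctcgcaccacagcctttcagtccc
Gadd45g: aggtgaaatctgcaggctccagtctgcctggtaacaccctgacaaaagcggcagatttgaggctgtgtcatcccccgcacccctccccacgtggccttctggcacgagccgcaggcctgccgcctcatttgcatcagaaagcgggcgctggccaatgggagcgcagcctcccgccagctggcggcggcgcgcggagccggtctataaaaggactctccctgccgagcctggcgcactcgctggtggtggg
The Cish stretch held 4 matches, beginning 241, 230, 136 and 119 bases before the start. Of 33469 upstream stretches of this length, 2566 (7.67%) held at least 1 match and 2 held 4 or more. The Gadd45g stretch held none, and of the other genes above Ier2 held 1 while Foxa2, Dusp6, Irf2bpl, Egfr, Depp1 and Cdc42ep4 held none. A match is a description of the letters, and no binding was measured.

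From a list of 36 genes of the immediate early and early stress response, chosen after values had been seen, 35 were measured. In 5 of them (14.3%) at least 7 of the 8 rats with high Gadd45g were among the 8 highest, against 0.342% of all 13462 genes, and the median was 4 of 8 against 3 of 8. The 5 were Ier2, Dusp6, Gadd45a, Ier3 and Dusp5. Gadd45a, a relative of Gadd45g, read 1.86 to 3.37 in the rats with high Gadd45g and 1.24 to 1.96 in the others, so the ranges overlapped at rat 1 on conventional soybean. The other relative, Gadd45b, read 1.93 to 2.60 over all rats and had 4 of the 8. Egr1 and Junb, also on the list, had 5 of the 8 rats each. Of 19 genes of growth hormone signalling, likewise chosen after values had been seen, 2 (10.5%) reached 7 of 8, Cish and Foxa2, while Socs2 had 3 and Socs3 had 5.

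Onecut1 did not show 2 tight levels, although it met the rule. By 1371034_at the 9 upper rats lay between 5.11 and 6.51, while the 11 lower rats spread from 0.94 to 4.15, and a second gap of 0.92 was nearly as wide as the largest, 0.96. Casein rats 1 to 5 read 2.38, 6.51, 5.40, 6.07 and 2.22, and those on conventional soybean 2.83, 5.80, 5.11, 5.34 and 2.69. The 3:1 rats read 3.19, 2.71, 1.86, 5.32 and 4.15, and the 1:1 rats 4.03, 5.34, 5.37, 1.89 and 0.94. The lowest values lay below the array medians, so no fold is given for the range, and each diet held rats on both sides of the gap. The second Onecut1 probe set, 1387760_a_at, which the rule did not use, had the same 9 rats highest, at 3.75 to 5.07, and the other 11 at 0.48 to 2.96. Its limma F test over the diets gave an adjusted p of 0.788. It reads the same messenger RNA in the same rats, and the rule required rats of 3 diets on each side of that split. Nothing is therefore read from this p-value.

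Exact partners of Onecut1 were, beside its own second probe set, the unnamed 1395255_at (4.86 to 6.43 against 0.64 to 4.28), the unnamed 1391550_at and Birc2, an inhibitor of cell death. In the gene order, LOC102549203 lies beside Onecut1, and its probe set 1393971_at had 8 of the 9 upper rats among its 9 highest, as had or mirrored 0.224% of the others. The 7 probe sets of the next 3 genes on the other side, Atosa, Arpp19 and Myo5a, had 3 or 4 of the 9, and 1393971_at was the only 1 of 29 probe sets within 25 places to have 8.

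The unnamed 1372727_at was the member closest to Onecut1. It lay at 6.42 to 7.80 in 13 rats and at 4.53 to 5.40 in 7, and 16 of the 20 rats lay on the same side as for Onecut1. Both Onecut1 probe sets nevertheless had the same 13 rats highest: by 1371034_at these rats read 2.83 to 6.51 and the other 7 read 0.94 to 2.71. Socs2, the growth hormone inducible suppressor of cytokine signalling, parted the rats in this way too, at 2.99 to 4.29 against 2.29 to 2.96. The other exact partners were Rbm15 in the same direction and Rin2 in the opposite one, 5 (0.0180%) of the 27701 probe sets in all. In the growth hormone list, 2 of 19 genes (10.5%) had at least 12 of the 13 upper rats among their 13 highest, Onecut1 and Socs2, against 0.208% of all genes, and the median was 9 of 13 in both. Bcl6, a repressor that growth hormone is known to lower, lay the other way: 12 of the 13 upper rats were among its 13 lowest. Bcl6 read 1.35 to 4.78 in those rats and 3.97 to 6.63 in the other 7. Cish had 10 of the 13, Igf1 8 and the male-specific enzyme Cyp2c11 9. Against the sides of Onecut1, 0 of 18 listed genes reached 8 of 9 in the same direction, against 0.156% of all genes. Stat5b had 8 of the 9 upper rats among its 9 lowest, at 1.67 to 2.57 against 2.03 to 2.57, a narrow range with overlap. The summed lymphocyte markers, 5.99 to 6.49 over the rats, had 12 of the 13 rats upper in 1372727_at among their 13 highest; their part in the order was not tested.

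**Figure D3:**
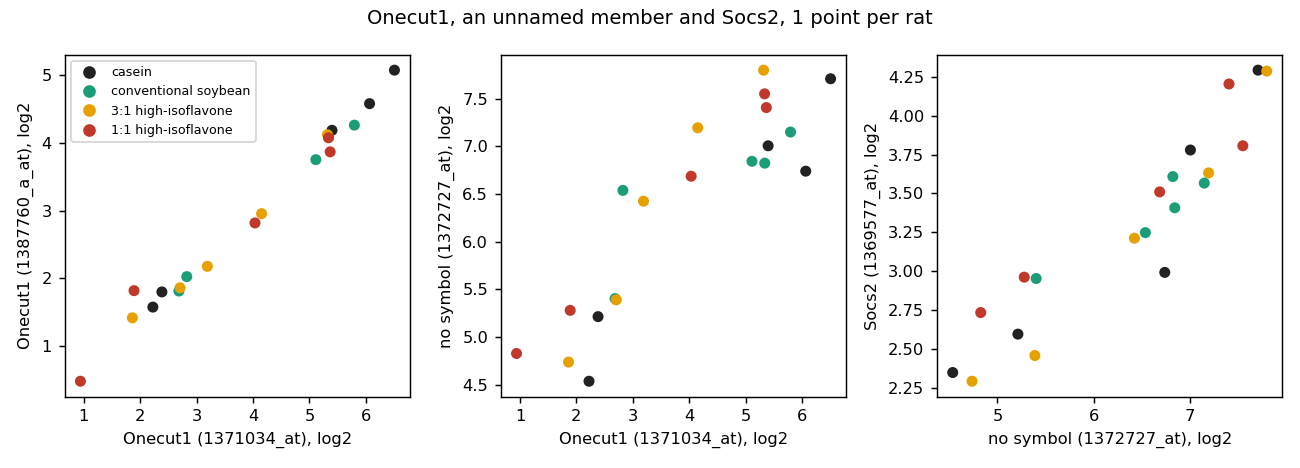
Log2 signals of both Onecut1 probe sets, of Onecut1 against 1372727_at and of 1372727_at against Socs2, 1 point per rat, coloured by diet. The same 9 rats are highest by both Onecut1 probe sets, and the 13 rats at or above 6.42 for 1372727_at are the 13 highest for Socs2.

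Pnpla3 met the rule but goes against the notion of a gene that ignores diet. By 1391544_at the casein rats read 7.98, 7.38, 8.69, 8.05 and 8.74, and those on conventional soybean 5.19, 6.07, 0.84, 6.31 and 4.01. The 3:1 rats read 6.44, 7.06, 7.74, 2.86 and 6.77, and the 1:1 rats 2.33, 1.93, 5.44, 1.61 and 4.37. All casein rats lay above every rat on conventional soybean and on the 1:1 diet, and the levels were graded, with the 15 upper rats spread over 4.73. The 5 rats below the gap were rat 3 on conventional soybean, rat 4 on the 3:1 diet and rats 1, 2 and 4 on the 1:1 diet.

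The 2 other Pnpla3 probe sets, which the rule did not use, parted the rats in the same way and fell on both diets with equal parts of soybean and casein. Probe set 1380013_at averaged 6.70 ± 0.603 on casein and 2.95 ± 1.54 on conventional soybean (SD, n = 5 each), a difference of -3.75 (SE 0.709, limma adjusted p = 0.0105). On the 1:1 diet it averaged 1.83 ± 1.04, a difference of -4.87 (SE 0.709, limma adjusted p = 0.000729). Probe set 1380643_at fell by 2.79 (SE 0.496, limma adjusted p = 0.00722) and by 3.45 (SE 0.496, limma adjusted p = 0.000685). On the 3:1 diet the differences of -2.02 and -2.04 had limma adjusted p-values of 0.434 and 0.159. These calls on both diets were kept when any 1 array was left out.

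A split of 15 and 5 rats is more easily matched than one nearer to even, so the members are not ranked by their exact partners. Pnpla3, with its 5 low rats, had 31 exact partners (0.112%), of which 26 went the same way. They included Fasn, fatty acid synthase, at 4.73 to 8.07 against 3.19 to 4.12 by 1367707_at. Thrsp (Spot 14) did so with 3 probe sets, by 1371400_at at 7.03 to 8.71 against 6.10 to 6.80. Acly, which makes acetyl-CoA in the cytosol, read 6.74 to 8.73 against 5.72 to 6.68. Pklr, the liver pyruvate kinase, Acss2, Irs3 and the lipid droplet coat Plin3 were others, and Man1a1 went the opposite way with 2 probe sets. Of 17 measured genes of a fatty acid synthesis list chosen after values had been seen, 11 (64.7%) had at least 14 of the 15 upper rats among their 15 highest, against 1.14% of all genes. The list's median was 14 of 15 and that of all genes 11. The exceptions were Fads1, Fads2, Elovl5 and Mlxipl with 13, Acacb with 12 and Gpam with 11. Gpam leaned the other way, with 13 of the 15 upper rats among its 15 lowest, at 4.25 to 6.37 against 4.87 to 6.14. The summed stellate cell markers, 6.72 to 7.22 over the rats, ran the other way, with 14 of the 15 upper rats among their 15 lowest; their part in the order was not tested. The diets differ in Pnpla3, so the rats were not ordered independently of diet.

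**Figure D4:**
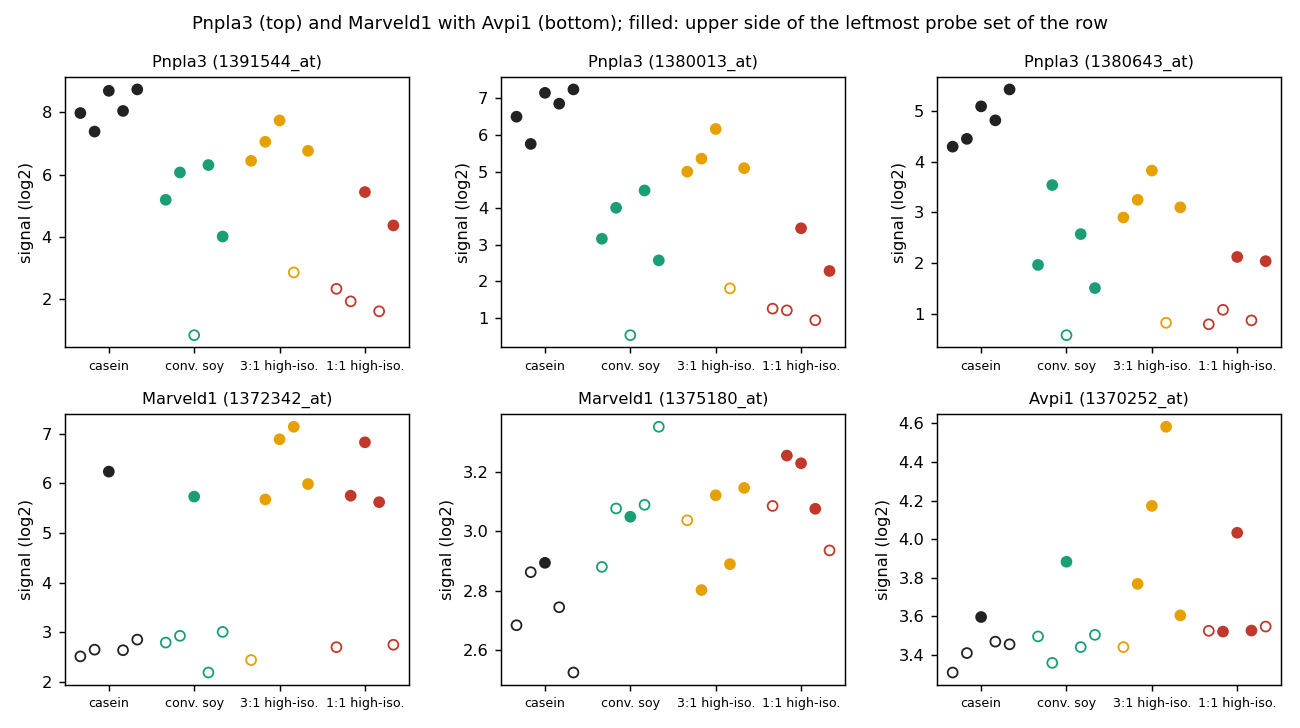
Log2 signal (vertical axis) by diet, 1 point per rat, of the 3 Pnpla3 probe sets (top) and of both Marveld1 probe sets and Avpi1 (bottom). Filled points are the rats on the upper side of 1391544_at or 1372342_at: the Pnpla3 probe sets part them alike, and the second Marveld1 probe set, between 2.52 and 3.35, does not.

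Pilra, an inhibitory receptor of myeloid cells, lay at 2.84 to 4.05 in 13 rats and at 0.67 to 1.75 in 7. On the 3:1 diet all 5 rats were upper, with 3.31, 3.68, 3.22, 2.84 and 3.30, and on conventional soybean only rat 1 was, at 3.37. On casein rat 4 was the single lower rat, at 1.72, and on the 1:1 diet rats 3 and 5 were, at 1.35 and 1.40. The summed markers of Kupffer cells and macrophages ran from 7.46 to 8.27 over the rats. They had 10 of the 13 upper rats among their 13 highest and 9 among their 13 lowest, groups that share rats. The summed red blood cell and stellate cell markers also had 10 among their 13 highest, so nothing is read from this count. Odf2 and 1 unnamed probe set were the exact partners, separated by 0.0049 and 0.022.

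Mlc1, a membrane protein best known from astrocytes, lay at 4.86 to 6.17 in 9 rats and at 3.05 to 3.93 in 11, with 3, 2, 3 and 1 upper rats in the 4 diets. It had no exact partner. Miox, the kidney-enriched enzyme that breaks down inositol, lies on the same chromosome with 18 genes between and had all but 1 of the upper rats among its 9 highest, as had or mirrored 0.0505% of the others. It was the only 1 of 32 probe sets within 25 places of Mlc1 to do so. Miox read 3.71, 3.73 and 3.94 in the 3 casein rats upper for Mlc1 and 2.54 and 3.33 in the other 2. Over all diets the sides overlapped: rat 3 on the 1:1 diet, upper for Mlc1, read 3.18.

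The unnamed 1392954_at lay at 4.01 to 4.87 in 9 rats and at 1.34 to 2.78 in 11. Its 2 exact partners were Ltb, the lymphocyte cytokine lymphotoxin beta, in the same direction and Apom, an apolipoprotein of high-density lipoprotein, in the opposite one. Ltb read 2.08 to 3.64 against 1.09 to 1.98, and Apom 6.86 to 7.48 against 7.57 to 7.90. Both genes lie on chromosome 20 with 7 genes between them in the RefSeq order, in the histocompatibility region. The gene, family and chromosome of 1392954_at itself are not known here.

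The unnamed 1388071_x_at, bright at 6.47 to 7.95 in 14 rats and 5.09 to 5.58 in 6, was upper in all 5 rats on conventional soybean. Its lower rats were rat 2 on casein, rats 2, 3 and 5 on the 3:1 diet and rats 4 and 5 on the 1:1 diet. The array median of these 6 rats lay between 2.43 and 2.49 and that of the other 14 between 2.44 and 2.57; its part in the split was not tested. It had 8 exact partners, separated by at most 0.084. The dim 1395327_at lay at 2.65 to 4.02 in 13 rats and at 0.68 to 1.78 in 7. It left the set under quantile normalization and under centring and scaling. Under centring and scaling 1388071_x_at left the set too, as it did without rat 2 on casein.

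The members split the rats in different ways. No 2 of the 11 parted them identically over 55 pairs, and the number of rats on the same side ranged from 5 to 16 with a median of 11. The closest pair was 1372727_at with Onecut1. Gadd45g had 15 of 20 rats on the opposite side to Pnpla3, and as many to 1395327_at. The upper sides held 8 rats for Gadd45g, 15 for Pnpla3 and 13 for 1395327_at, which bears on such counts. These pairs were picked from the 55, so no relation is read. The upper side held 36 of 55 placings on casein, 33 on conventional soybean, 30 on the 3:1 diet and 28 on the 1:1 diet. Pnpla3 alone gave 5, 4, 4 and 2 of these. Each rat counts once per member, so the placings are not independent and no trend over the diets is read. By rat the count of upper sides ran from 1 of 11, in rat 5 on the 1:1 diet, to 9, in rat 3 on casein, rat 2 on conventional soybean and rat 3 on the 1:1 diet. Counted once per member in the same way, rats numbered 5 held 16 of 44 upper placings, against 26 to 30 for each of the other numbers.

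**Figure D5:**
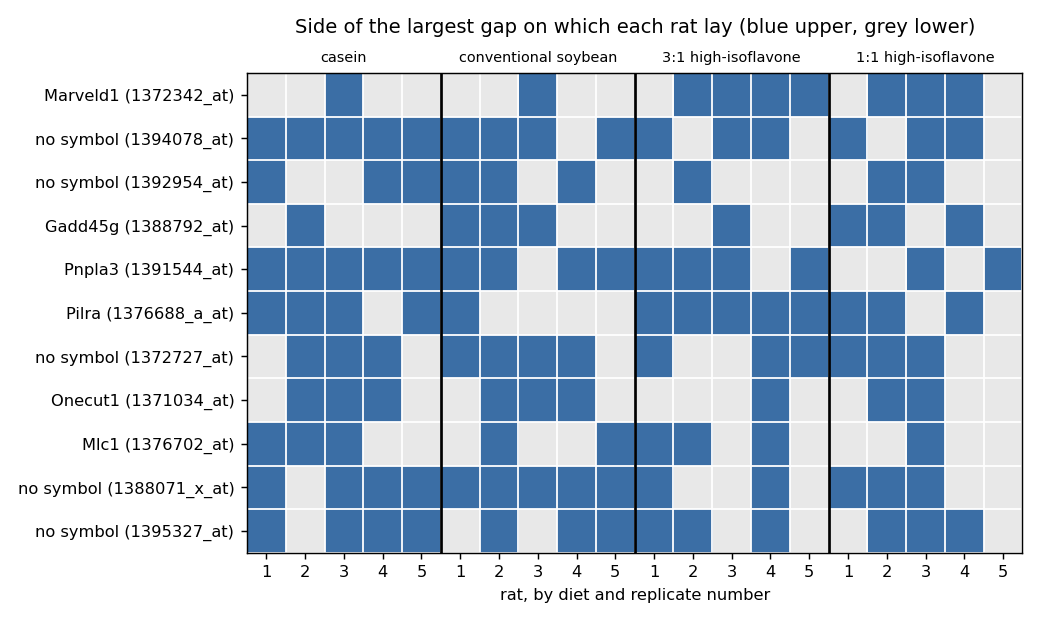
Side of the largest gap on which each of the 20 rats (columns, by diet and replicate number) lay for each of the 11 members (rows), upper in blue and lower in grey. No 2 rows are alike, and rat 5 on the 1:1 diet is upper in 1 row.

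Over the diets, limma's moderated F test called 373 of 27702 probe sets (1.35%) at an adjusted p under 0.05, and 1 of the 11 members, Pnpla3 (adjusted p = 0.0257). The other 10 had limma adjusted p-values from 0.225 (Pilra) to 0.985 (1372727_at). The rule requires rats of 3 diets on each side, which bears on this contrast, so nothing is read from that count. Against casein, Pnpla3 was also the only member called on conventional soybean (-3.69, SE 0.944, limma adjusted p = 0.0493) and on the 1:1 diet (-5.04, SE 0.944, limma adjusted p = 0.00647). The background was 1.64% of probe sets on conventional soybean, 2.21% on the 1:1 diet and 0.0397% on the 3:1 diet, where limma called 0 members. At an unadjusted p under 0.05 on the 3:1 diet stood 3 of the 11 members and 2249 of the 27702 probe sets. The widest mean differences from casein among members other than Pnpla3 were those of Marveld1 on the 3:1 diet (2.25, SE 0.937, limma adjusted p = 0.542) and of 1394078_at on the 1:1 diet (-1.65, SE 0.654, limma adjusted p = 0.196). Neither passed the test. The SD within diets of every member lay at or above the 99.4th percentile of all probe sets whose mean met the rule. The gap that the rule requires widens this SD, so nothing is read from the percentile. The call of 1391544_at over the diets was lost without the 2 arrays with a higher floor (limma adjusted p = 0.0990) and without any 1 of casein rats 2 to 5 or of 1:1 rats 2 and 4 (limma adjusted p up to 0.0757). Its call on conventional soybean was lost in 16 of 20 omissions of 1 array, all but those of conventional soybean rats 2 and 4, 3:1 rat 4 and 1:1 rat 3. The other Pnpla3 probe sets kept their calls over the diets in all of these fits.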

How the data were processed

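Liver messenger RNA was measured in 20 rats on an Affymetrix 3′ array. The authors deposited 1 table of values normalized with the SuperNORM data service, per the labels; its version and the summary of probes are not given here. The deposited values were taken as log10 signals, a base inferred from the spike-in controls (slope 0.997, SD 0.0242, 20 arrays), and multiplied by 3.32 to give log2. Of 31099 probe sets, 57 controls and 3342 without values were left out (2 in both). The platform annotation lists 1 symbol for 19147 of the 27702 probe sets tested, several for 404 and none for 8151. Diets were assigned by the wording of the titles.

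The rule was applied to the deposited values. Another probe set parts the rats as a member does when its k highest or k lowest rats are exactly the k upper rats of the member. For lists, each gene was read by its brightest probe set. Diets were compared with limma 3.58.1 and R 4.3.3 (a mean for each diet, all 20 arrays, eBayes with trend, Benjamini-Hochberg over 27702 probe sets, two-sided); the scripts were tested on simulated data. The text names all 11 members, the 3 probe sets nearest to each side of the threshold, other probe sets of the members' genes, and neighbours within 3 places in the RefSeq order where one followed the member (0 of 2 probe sets did for Gadd45g, 0 of 5 for Pnpla3 and 0 of 2 for Mlc1); Miox, which lies farther away, the partners and the gene lists were chosen after their values were seen. The members and lists were chosen with earlier results of these data known. Deviations from the diet means correlated at a median of 0.0342 over 30 pairs of rats with the same replicate number (range -0.163 to 0.401) and of -0.0077 over other pairs. The median was 0.257 among rats numbered 1. Since not every pair was above 0.1, the numbers were not taken to pair rats.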

Additional observations from a re-analysis of the deposited data

Results flagged for a closer look

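Within a diet, 7 of 44 groups of 5 rats held a rat far from the other 4, where chance gives about 1 in 20 groups, and the members were chosen for such gaps. The gap to the nearest rat, as a share of the group's range, was 0.909 for Marveld1 in rat 3 on casein (6.24 against 2.51 to 2.85) and 0.769 in rat 3 on conventional soybean (5.73 against 2.19 to 3.01). It was 0.869 for Gadd45g in rat 3 on the 3:1 diet (4.08 against 2.16 to 2.41), the same rat in which Cish read 3.83. It was 0.734 for Pnpla3 in rat 4 on the 3:1 diet (2.86 against 6.44 to 7.74), a low value that its other probe sets shared at 1.81 and 0.82. Among the unnamed members it was 0.844 for 1394078_at in rat 4 on conventional soybean (2.40 against 4.54 to 4.94), 0.729 for 1392954_at in rat 2 on the 3:1 diet (4.33 against 1.34 to 2.15) and 0.755 for 1388071_x_at in rat 3 on conventional soybean (7.95 against 6.47 to 6.83).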

How the results depend on the processing

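The number of members was 17 with a gap of at least 0.20 log10, and 7 with a gap of at least 0.30, with a mean of at least 1 log10 or with 4 diets required on each side; it was 10 to 17 with 1 array left out, highest without rat 2 on conventional soybean. Identical pairs numbered 0 to 1 with 1 array left out (Onecut1 with 1395255_at, without rat 1 or rat 5 on the 3:1 diet), and the same pair was identical without the 2 arrays with a higher floor. With 3 arrays allowed on a side, the added members Wfdc2 and Slpi parted the rats identically. With 1 array left out, 1 to 4 other probe sets of the members' genes parted the rats as the member did. Without rat 3 on conventional soybean or rat 4 on the 3:1 diet, Pnpla3 left the set. Quantile normalization kept 10 of the 11 members, and centring and scaling 9. In a comparison added after seeing the data, 11 of the 12 exact partners of Gadd45g remained under either, but those of 1388071_x_at fell to 1 or 2 of 8. Gaps moved by less than the SD within diets in all 253 comparisons, an SD that the gaps themselves widen.

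With the replicate block the F test called 397 probe sets and the contrasts 591 (conventional soybean), 659 (1:1 diet) and 23 (3:1 diet), and 0 members on conventional soybean; the numbers were not taken to pair rats: 7 of 20 arrays, not all, correlated best with their own number, although rats numbered 1 correlated at a median of 0.257. Without the 2 arrays with a higher floor the counts were 124, 114, 312 and 4, and 0 members over the diets and on conventional soybean. Without the trend they were 246 by F and 3 on the 3:1 diet, with 0 members on conventional soybean. The 3:1 count was 11, or 7 after quantile normalization, 6 after centring and scaling and 5 in a fit of the compared diets only. With 1 array left out, the F test called 151 to 411 probe sets and 0 to 1 members, conventional soybean 120 to 499 and 0 to 1 members, the 1:1 diet 296 to 716 and the 3:1 diet 1 to 26; the lowest counts but that of the 1:1 diet came without rat 5 on casein. The F call of Pnpla3 1391544_at was lost without casein rat 2, 3, 4 or 5 or 1:1 rat 2 or 4 (adjusted p up to 0.0757), while both other probe sets kept theirs in all 26 alternatives. The other members and second probe sets were called in 0 of 312 alternatives of the F test by limma (lowest adjusted p 0.0924). The rule bears on this count too, so nothing is read from it. The cause of these changes was not tested.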
